A study of Arabidopsis thaliana with 28 samples.

Results

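The 49 genes described here are the Arabidopsis thaliana UDP-glycosyltransferases that carry a UGT name in the deposited tables. They were chosen by name from the nuclear genes, as rows called UGT followed by a digit with 2 anthocyanin-modifying loci left out, and they are 49 of 33602 reference genes. The RefSeq annotation describes 132 nuclear loci as UDP-glucosyl or UDP-glycosyl transferases and includes all 49, so the chosen genes are a named subset of a larger family. Transcript levels were measured by RNA sequencing of whole 7-day-old seedlings, of a pif7 mutant whose allele is not named and of the wild type Col-0, grown with 16 h of light and 8 h of darkness. The medium and the light cycle were shared by all groups. The 4 groups were pif7 in the oscillating regime, pif7 in the constant regime, Col-0 in the oscillating regime and Col-0 in the constant regime. The oscillating regime had a warm midday of 27 °C between ZT4 and ZT12 and was otherwise at 17 °C, and the constant regime stayed at 17 °C, where ZT counts hours after lights on. Every group has a library at ZT0 and ZT4, at ZT5, ZT8 and ZT12 (the warm window), and at ZT16 and ZT20, which makes 28 libraries with no replicates. The temperature label of oscillating libraries reads 27 °C even at ZT0 and ZT20, and the growth protocol was followed here instead.

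UDP-glycosyltransferases move a sugar, usually glucose, from a UDP-sugar donor onto small molecules, which makes these more soluble and often stores or inactivates them. Their known acceptors in plants include auxins, cytokinins, abscisic acid, salicylate, jasmonates, flavonoids, monolignols and sinapate. In warm seedlings auxin level and sensitivity are known to shape growth of the stem, and PIF7, a basic helix-loop-helix factor, is known to act in that response.

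PIF7 itself was lower in pif7 in all 14 pairs of libraries, with 1.91 to 13.1 TPM in pif7 libraries and 8.42 to 38.6 TPM in Col-0 libraries (log2 difference -1.54 ± 0.10 SE, limma adjusted p = 2.31e-08). TPM is a level scaled to transcript length and to the library total, so genes can be compared with each other. Depth was 1.32 to 2.82 gigabases per library. The 2 Col-0 constant libraries at ZT5 and ZT8 stood apart in genes that inactivate jasmonates. There CYP94C1, which oxidises the active jasmonate, had 39.9 and 8.68 TPM, against 0.378 to 1.34 TPM in the other 26 libraries. Results of the members that rest on the ZT5 and ZT8 pairs are therefore also given without those 2 Col-0 pairs. Of the marker lists for organs, the 3 shoot genes summed to 10630 to 12189 TPM in pif7 oscillating libraries against 13000 to 15606 TPM in pif7 constant ones, and to 10194 to 14298 TPM in Col-0 oscillating libraries against 12331 to 16402 TPM in Col-0 constant ones. The 9 root genes summed to 1484 to 1980 TPM in pif7 oscillating, 1422 to 2013 TPM in pif7 constant, 1758 to 2589 TPM in Col-0 oscillating and 1355 to 2013 TPM in Col-0 constant libraries. The 3 seed storage genes summed to 0.511 to 10.1 TPM in pif7 oscillating, 0.056 to 0.648 TPM in pif7 constant, 0.668 to 1.64 TPM in Col-0 oscillating and 0.182 to 0.594 TPM in Col-0 constant libraries. None of the 15 marker genes was at 0 in every library. In whole seedlings fewer cells of a type and less RNA per cell cannot be told apart, and the part of organ makeup in the results below was not tested.

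The stretches upstream of 4 members are printed because these are the 4 whose warm-window decrease, described below, passed the test with every time left out in turn. Each is 300 bases long and ends just before the more upstream of the gene starts given by the files and by RefSeq. Capitals mark CACATG and the G-box CACGTG, both known as binding sites of PIF-type factors, on either strand.
UGT74E2, TAIR10.1 chr1:1704839-1705138, minus strand: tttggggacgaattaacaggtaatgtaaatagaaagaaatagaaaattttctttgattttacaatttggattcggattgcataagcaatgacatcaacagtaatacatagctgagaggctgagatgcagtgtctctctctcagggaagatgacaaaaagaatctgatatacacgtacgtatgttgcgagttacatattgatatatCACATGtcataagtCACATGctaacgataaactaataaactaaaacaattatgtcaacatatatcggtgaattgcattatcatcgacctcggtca
UGT73B4, TAIR10.1 chr2:6761335-6761634, plus strand: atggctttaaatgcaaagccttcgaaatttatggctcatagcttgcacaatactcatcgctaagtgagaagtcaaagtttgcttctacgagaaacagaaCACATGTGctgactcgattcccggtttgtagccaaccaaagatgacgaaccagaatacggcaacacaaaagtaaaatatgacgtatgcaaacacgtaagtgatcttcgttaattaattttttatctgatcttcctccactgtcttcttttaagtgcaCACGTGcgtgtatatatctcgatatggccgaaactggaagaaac
UGT71C2, TAIR10.1 chr2:12706327-12706626, plus strand: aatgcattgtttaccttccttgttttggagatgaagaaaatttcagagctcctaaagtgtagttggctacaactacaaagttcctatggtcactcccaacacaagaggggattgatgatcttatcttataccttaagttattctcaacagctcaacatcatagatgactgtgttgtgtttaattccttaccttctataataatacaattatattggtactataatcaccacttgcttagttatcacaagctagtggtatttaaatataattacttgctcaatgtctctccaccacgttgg
UGT72B3, TAIR10.1 chr1:156179-156478, minus strand: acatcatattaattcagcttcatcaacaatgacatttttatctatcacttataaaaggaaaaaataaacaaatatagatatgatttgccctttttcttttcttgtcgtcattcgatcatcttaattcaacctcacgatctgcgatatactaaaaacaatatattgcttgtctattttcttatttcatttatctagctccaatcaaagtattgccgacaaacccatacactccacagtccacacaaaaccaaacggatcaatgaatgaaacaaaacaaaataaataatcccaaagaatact
UGT74E2 held CACATG at 95 and at 81 bases upstream, counted to the first base of the motif. UGT73B4 held a G-box at 44 bases upstream and the letters CACATGTG, which are CACATG on both strands at once, at 201. UGT71C2 and UGT72B3 held neither motif in the window, and the last 2 bases of the UGT72B3 window lie in an exon of a neighbouring gene. The window of UGT73B4 lies inside a long gene model of its neighbour UGT73B5 and overlaps none of that gene's exons. Over all 49 members CACATG was found in 9 windows (18.4%), the G-box in 4 (8.2%), the heat shock element GAANNTTC in 5 (10.2%) and the evening element AAAATATCT in 3 (6.1%). Over all 26711 coding genes with a window of that length the shares were 13.1%, 7.2%, 11.4% and 2.8%. Both strands were searched for each motif, and a match in these letters is a description of the window.

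Levels of the 49 members spanned a wide range. UGT88A1 had the highest mean, 96.5 TPM over the 28 libraries, with 50.2 at the lowest, 95.4 at the median and 145 at the highest. UGT74D1, a glucosyltransferase of auxins, followed at 57.8 TPM, and UGT74B1, which adds glucose to the thiohydroximate intermediate of glucosinolates, at 54.1 TPM. UGT73B1 had 53.1, UGT72E1 52.1 and UGT1, named UGT75B1 in RefSeq, 51.3 TPM on average. The ranges of these 6 members overlapped across libraries, so their order rests on the means. The flavonol enzymes UGT73B2, UGT78D1 and UGT78D2 averaged 42.6, 42 and 33.0 TPM, and UGT76C2, which inactivates cytokinins by N-glucosylation, 25.4 TPM. These 10 members held 66.8% of the summed TPM of all 49, and that sum ran between 536 and 1181 TPM per library. In all, 22 members had a mean of at least 10 TPM, 17 a mean of 1 to 10 and 10 a mean under 1. A filter of at least 1 TPM in at least 2 libraries left 42 members and 21031 genes for testing. The 7 members that did not pass were UGT76E12, UGT71B8, UGT78D3, UGT71B5, UGT73C2, UGT84B2 and UGT84B1, with means of 0.290 TPM down to 0.0024 TPM. UGT76E1 passed only through 2 Col-0 constant libraries. UGT73D1 reached 1 TPM in 7 libraries, and Col-0 at ZT20 (1.17 TPM) was the only oscillating one, so it passed through constant libraries.

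**Figure D1:**
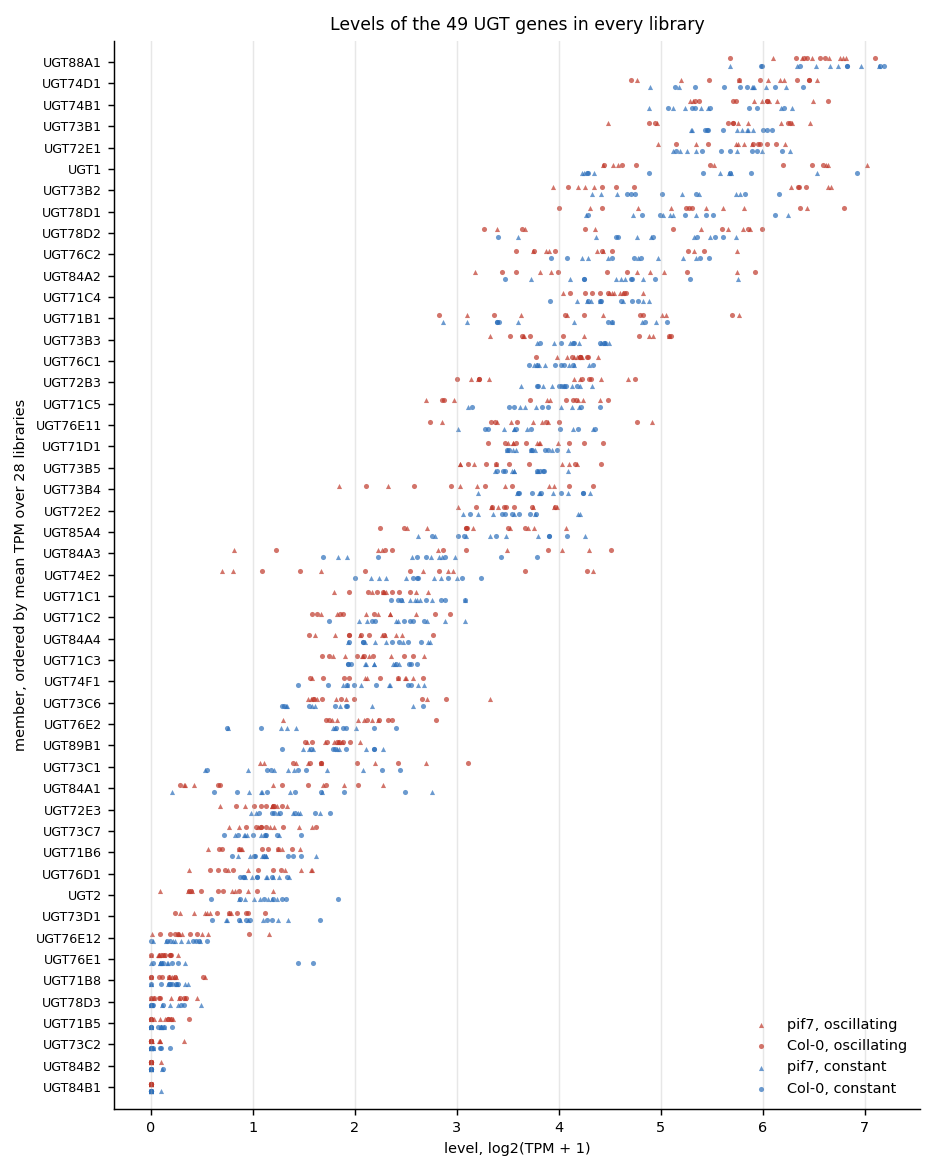
Level of each of the 49 UGT genes as log2(TPM + 1) on the horizontal axis, with members on the vertical axis in order of mean TPM. Each point is 1 library, red in the oscillating regime and blue in the constant regime, with triangles for pif7 and circles for Col-0; UGT88A1 is highest at a mean of 96.5 TPM and 7 members stay below the test filter.

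The first comparison asks what a warm midday does to these genes while it lasts, at ZT5, ZT8 and ZT12 in both genotypes. Most of the tested members were lower in the oscillating regime than in the constant regime, and 18 of 42 passed as lower (42.9%, against 8.97% of all genes tested). These members and all lists below were chosen with earlier results of these data known. Without UGT76E1, whose filter rested on 2 constant libraries, 17 of 41 passed as lower (41.5%). UGT73D1, still among these 17, also needed constant libraries to pass the filter, so its call is no independent support. UGT76C1 was the 1 member that passed as higher (2.38%, against 10.4% of all genes). The median log2 difference over the 42 members was -0.43, against -0.00 over all genes, and 35 members lay below 0. In every one of the 6 pairs 15 members were lower (35.7%, against 10.8% of all genes). For 7 members each oscillating window level lay under each constant one (16.7%, against 3.1% of all genes). With 1 library per condition, the limma p-values measure how constant a difference was across times and genotypes, not the spread between pools of seedlings. In either direction 19 members passed (45.2%, against 19.4% of all genes). The count of 19 became 10 without the Col-0 pairs at ZT5 and ZT8, all 10 lower, with 10.2% of all genes called, and 9 of the 10 were among the 19. It was 10 without ZT5, 9 without ZT8 and 11 without ZT12, with 18.4%, 5.96% and 9.54% of all genes called.

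**Figure D2:**
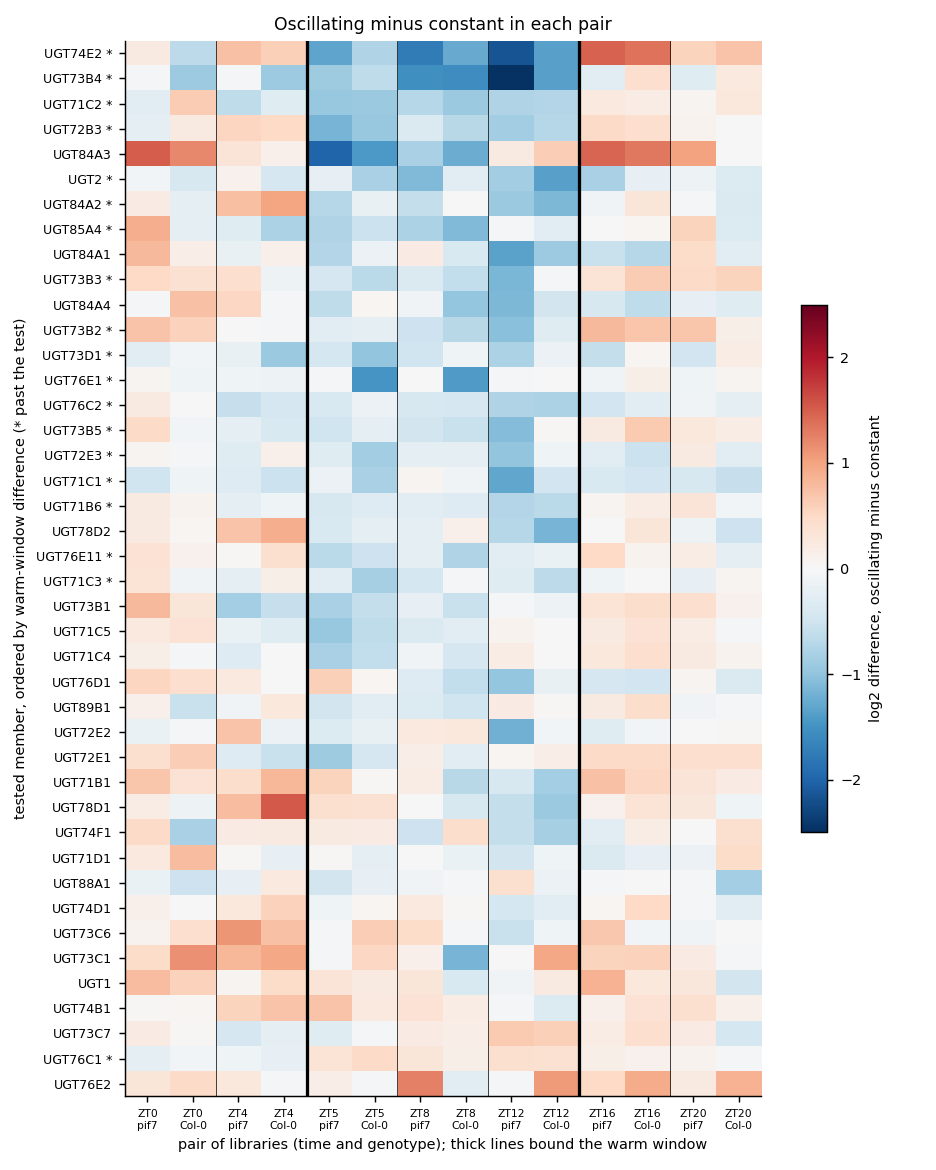
Log2 difference, oscillating minus constant, in each of the 14 pairs of libraries (horizontal axis, time and genotype) for the 42 tested UGT genes (vertical axis, ordered by warm-window difference, with a star for those that passed). Blue is lower and red higher in the oscillating regime; the 6 columns between the thick lines are the warm window, where 35 members have a mean below 0, and UGT74E2 is red in both columns at ZT16.

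Among the auxin enzymes, UGT74E2, which glucosylates indole-3-butyric acid, changed most. In the warm window it had 2.19, 0.746 and 0.615 TPM in pif7 oscillating seedlings at ZT5, ZT8 and ZT12, against 7.02, 4.68 and 6.21 TPM in pif7 constant seedlings. In Col-0 it had 3.27, 1.75 and 1.12 TPM in the oscillating regime, against 6.51, 5.12 and 4.94 TPM in the constant one. All 6 oscillating levels lay below all 6 constant ones, and they were lower at each later time. The log2 difference on log2(TPM + 1), which understates the change of low genes, was -1.43 ± 0.22 (SE, adjusted p = 0.00086, lower in 6 of 6 pairs). At ZT16, 4 h after the return to 17 °C, the order was the other way round. UGT74E2 then had 19.1 TPM in pif7 and 18.4 TPM in Col-0 in the oscillating regime, against 5.83 TPM in pif7 and 5.13 TPM in Col-0 in the constant one, and these were its highest levels in the series. That difference was 1.42 ± 0.24 (adjusted p = 0.0177). UGT74D1, the other auxin enzyme tested, did not pass in the warm window (-0.08 ± 0.12, adjusted p = 0.663), and its levels of 25.2 to 53.5 TPM in oscillating libraries overlapped those of 28.8 to 58.9 TPM in constant ones. UGT84B1, which acts on indole-3-acetic acid in vitro, was at 0 in 27 of 28 libraries.

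The UGT73B genes, known to respond to pathogens and oxidative stress, were the group with most members past the test, with 4 of 5 lower and a median of -0.51. UGT73B4 had 7.16, 3.99 and 2.58 TPM in pif7 oscillating seedlings at ZT5, ZT8 and ZT12, against 14.4, 13 and 18.8 TPM in pif7 constant ones. In Col-0 its levels were 10.6, 5.00 and 3.32 TPM in the oscillating regime, against 17.9, 15.3 and 11.2 TPM in the constant one. No oscillating level reached the lowest constant one, and the difference was -1.41 ± 0.21 (adjusted p = 0.000783). The gene model of UGT73B5 in the files covers all of UGT73B4 on the same strand, and the coding sequences share an exact run of 159 bases, so reads of these 2 genes may have been divided between them. UGT73B5 was lower by less (-0.46 ± 0.14, adjusted p = 0.0319) and did not pass without the Col-0 pairs at ZT5 and ZT8 (-0.32, adjusted p = 0.312). UGT73B2, a flavonol 7-O-glucosyltransferase, and UGT73B3 fell by 0.51 and 0.54 (adjusted p = 0.018 and 0.00965) and share a run of 82 bases. Neither passed without those 2 pairs (-0.46 and -0.34, adjusted p = 0.144 and 0.217). Outside the warm window the same 2 genes were higher in the oscillating regime, as given below. UGT73B1, the third gene of their cluster, had a log2 difference of -0.39 ± 0.19 that did not pass (adjusted p = 0.158).

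UGT72B3 and UGT71C2, whose acceptors in seedlings are not well described, completed the 4 members that passed whichever time was left out. UGT72B3 had 7.80, 8.99 and 8.22 TPM in pif7 oscillating seedlings in the window, against 19.1, 11.4 and 15.6 TPM in pif7 constant ones, and 7.03, 8.30 and 8.31 TPM in Col-0 oscillating seedlings, against 15.2, 12.9 and 15.8 TPM in Col-0 constant ones. The oscillating levels stayed within a narrow band below every constant level (-0.79 ± 0.12, adjusted p = 0.000953). UGT71C2 had 3.31, 3.66 and 2.18 TPM in pif7 oscillating seedlings, against 7.44, 6.38 and 4.31 TPM in pif7 constant ones, and 1.98, 2.61 and 2.09 TPM in Col-0 oscillating seedlings, against 4.83, 5.38 and 4.60 TPM in Col-0 constant ones. Its groups did not overlap either (-0.83 ± 0.13, adjusted p = 0.000995). Without the Col-0 pairs at ZT5 and ZT8 these 4 members still passed, with UGT74E2 at -1.55, UGT73B4 at -1.50, UGT71C2 at -0.77 and UGT72B3 at -0.75. The other members called without those pairs were UGT2, UGT84A2, UGT76C2, UGT71B6, UGT71C3 and, newly, UGT78D2 (-0.81 ± 0.23, adjusted p = 0.0444).

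Cytokinin enzymes held the 1 case of neighbouring genes that passed in opposite directions. UGT76C2 had 19.8, 13.7 and 12.4 TPM in pif7 oscillating seedlings in the window, against 26.4, 17.8 and 21.3 TPM in pif7 constant ones, and 22, 12.6 and 10.9 TPM in Col-0 oscillating seedlings, against 25.8, 15.9 and 22 TPM in Col-0 constant ones. It was lower in 6 of 6 pairs, while the levels of the groups overlapped across times (-0.49 ± 0.11, adjusted p = 0.0104). UGT76C1, which also glucosylates cytokinins and lies next to UGT76C2 on chromosome 5, had 17.2, 16.8 and 17.7 TPM in pif7 oscillating seedlings, against 13.6, 12.8 and 13 TPM in pif7 constant ones. In Col-0 it had 17.4, 18.4 and 18.5 TPM in the oscillating regime, against 12.8, 15.3 and 15.6 TPM in the constant one. Every oscillating level lay above every constant one, by a small margin (0.34 ± 0.08, adjusted p = 0.0105, higher in 6 of 6 pairs). It did not pass without the Col-0 pairs at ZT5 and ZT8 (0.37, adjusted p = 0.0659). UGT73C1, which makes cytokinin O-glucosides in vitro, did not pass (0.07 ± 0.22, adjusted p = 0.846).

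Of the 4 hydroxycinnamate enzymes, UGT84A2, which makes sinapoylglucose, passed as lower in the warm window and the other 3 did not. UGT84A2 had 13.1, 8.03 and 14.2 TPM in pif7 oscillating seedlings, against 22.6, 12.2 and 27.5 TPM in pif7 constant ones, and 15, 11 and 9.87 TPM in Col-0 oscillating seedlings, against 18, 10.1 and 25.4 TPM in Col-0 constant ones. The levels overlapped and the difference was -0.59 ± 0.18 (adjusted p = 0.0322, lower in 5 of 6 pairs). It was not past the test without ZT5, ZT8 or ZT12 (adjusted p = 0.0639, 0.0709 and 0.262). UGT84A1 and UGT84A4 had differences of -0.55 ± 0.21 and -0.54 ± 0.19 (adjusted p = 0.0802 and 0.0595), and UGT84A3, discussed by time below, -0.77 ± 0.31 (adjusted p = 0.0903).

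In the flavonoid list, which does not hold UGT73B2, none of the 3 enzymes tested passed over the whole window. UGT78D2, the flavonoid 3-O-glucosyltransferase, had -0.44 ± 0.18 (adjusted p = 0.106), UGT78D1, the flavonol 3-O-rhamnosyltransferase, -0.19 ± 0.21 (adjusted p = 0.557) and UGT73C6, a flavonol 7-O-glucosyltransferase, 0.06 ± 0.18 (adjusted p = 0.847). UGT78D1 and UGT78D2 passed as higher at ZT4 and as lower at ZT12, and UGT73C6 as higher at ZT4, as given below. Of the 3 monolignol enzymes UGT72E3 fell by 0.46 (adjusted p = 0.0353, not past the test without the Col-0 pairs at ZT5 and ZT8), while UGT72E1 and UGT72E2 had -0.20 ± 0.17 and -0.22 ± 0.16 (adjusted p = 0.44 and 0.363). Among the 3 tested enzymes of abscisic acid, UGT71B6 was lower at levels near 1 TPM, with a median of 0.718 TPM in oscillating and 1.16 TPM in constant libraries and no overlap (-0.45 ± 0.11, adjusted p = 0.0109). UGT71C5 had -0.36 ± 0.13 (adjusted p = 0.0761) and UGT1 0.10 ± 0.14 (adjusted p = 0.663). UGT2, named UGT75B2 in RefSeq, lay in the same low range and was lower without overlap, at a median of 0.301 TPM in oscillating and 1.25 TPM in constant libraries (-0.77 ± 0.16, adjusted p = 0.0052).

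Of the 4 salicylate and benzoate enzymes tested, UGT71C3, which glucosylates methyl salicylate, passed as lower (-0.42 ± 0.11, adjusted p = 0.0194). UGT74F1, UGT89B1 and UGT76D1 had -0.18 ± 0.19, -0.22 ± 0.14 and -0.24 ± 0.19, and none passed. UGT74B1 had 0.18 ± 0.12 (adjusted p = 0.318). Of the 3 jasmonate enzymes tested, UGT76E11 fell by 0.43 (adjusted p = 0.0142), without passing when the 2 Col-0 pairs were left out (-0.28, adjusted p = 0.249). UGT76E1 passed (-0.49 ± 0.16, adjusted p = 0.0438) through 2.01 and 1.72 TPM in the Col-0 constant libraries at ZT5 and ZT8, and had at most 0.258 TPM in the other 26. Those are the libraries that stood apart in CYP94C1, and without them the difference was -0.01 (adjusted p = 0.984). UGT76E2 had 0.36 ± 0.19 and did not pass (adjusted p = 0.209). The remaining members past the test in the window were UGT85A4, UGT73D1 and UGT71C1, at -0.58, -0.49 and -0.46, and none of these 3 passed without the Col-0 pairs at ZT5 and ZT8.

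The next comparisons follow the regime difference through the day, over both genotypes at each time. At ZT4, when the warming of the day was due to begin, 5 members were higher (11.9%, against 2.54% of all genes) and 2 lower (4.76%, against 2.23%). UGT78D1 had 55.6 TPM in pif7 and 81.5 TPM in Col-0 in the oscillating regime, against 31.6 TPM in pif7 and 27.2 TPM in Col-0 in the constant one (1.14 ± 0.19, adjusted p = 0.00567). UGT78D2 had 49.7 and 57.0 TPM in pif7 and Col-0 oscillating seedlings, against 29.0 and 29.3 TPM in pif7 and Col-0 constant ones (0.82 ± 0.16, adjusted p = 0.0146). UGT73C6, UGT84A2 and UGT74B1 were higher by 0.92, 0.87 and 0.63. All 3 tested members of the flavonoid list thus passed as higher at this time. UGT73B1 and UGT76C2 fell by 0.71 and 0.49. At ZT0, when the lights came on, UGT84A3 was the 1 member higher (2.38%, against 0.319% of all genes) and 0 were lower (against 0.48%). It stood at 10.3 and 6.29 TPM in pif7 and Col-0 oscillating seedlings, against 2.57 and 2.23 TPM in pif7 and Col-0 constant ones (1.36 ± 0.24, adjusted p = 0.0222).

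One hour into the warming, at ZT5, 8 members were lower (19%, against 3.56% of all genes) and 0 higher (against 4.03%). UGT84A3 had 0.763 and 1.33 TPM in pif7 and Col-0 oscillating seedlings, against 6.21 and 5.47 TPM in pif7 and Col-0 constant ones (-1.72 ± 0.24, adjusted p = 0.00116). UGT72B3, UGT74E2 and UGT71C2 fell by 1.06, 1.04 and 0.93 at this time. UGT71C5, UGT71C4, UGT73B1 and UGT72E1 fell by 0.79, 0.71, 0.70 and 0.66, and of these 4 none passed over the window as a whole. At ZT8 again 8 members were lower (19%, against 5.33% of all genes) and 0 higher (against 5.18%), led by UGT73B4 at -1.54, UGT74E2 at -1.50 and UGT84A3 at -1.02, followed by UGT85A4, UGT71C2, UGT73B2, UGT72B3 and UGT76C2. The calls at ZT5 and ZT8 shared 4 members. Without the Col-0 pairs 1 pair, that of pif7, was left at ZT5 and at ZT8, so only effect sizes are given. All members called at each time stayed below 0 in it. UGT84A3 had -2.01 and UGT72B3 -1.16 at ZT5, and UGT74E2 had -1.75 and UGT72B3 -0.36 at ZT8.

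At the end of the warming, at ZT12, 13 members were lower (31.0%, against 7.05% of all genes) and 2 higher (4.76%, against 9.13%). UGT73B4 and UGT74E2 fell most, by 1.92 and 1.76 (adjusted p = 0.00234 and 0.00113). Of the phenylpropanoid lists 2 of 3 flavonoid, 2 of 4 hydroxycinnamate and 0 of 3 monolignol members passed as lower. UGT84A2 had 14.2 and 9.87 TPM in pif7 and Col-0 oscillating seedlings, against 27.5 and 25.4 TPM in pif7 and Col-0 constant ones (-1.03 ± 0.19, adjusted p = 0.00523). UGT78D2 had 11.7 and 8.62 TPM in pif7 and Col-0 oscillating seedlings, against 19.6 and 22.9 TPM in pif7 and Col-0 constant ones (-0.94 ± 0.16, adjusted p = 0.0032). UGT84A1, UGT78D1 and UGT71B6 fell by 1.13, 0.76 and 0.71, and UGT2, UGT71C1, UGT72B3, UGT76C2, UGT71C2 and UGT73B2 completed the list. UGT73C7 and UGT76C1 were higher by 0.62 and 0.39. UGT84A3, low at ZT5 and ZT8, had 6.05 and 7.54 TPM in pif7 and Col-0 oscillating seedlings, against 4.92 and 5.10 TPM in pif7 and Col-0 constant ones, and did not pass (0.43 ± 0.24, adjusted p = 0.248).

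After the return to 17 °C the sign changed for several members. At ZT16, 3 members were higher (7.14%, against 1.42% of all genes) and 0 lower (against 1.64%), and 29 of 42 lay above 0. Besides UGT74E2, UGT84A3 had 18.6 and 21.8 TPM in pif7 and Col-0 oscillating seedlings, against 5.73 and 6.36 TPM in pif7 and Col-0 constant ones (1.40 ± 0.24, adjusted p = 0.017). UGT73B2 had 76.6 and 80.9 TPM in pif7 and Col-0 oscillating seedlings, against 40.6 and 39.6 TPM in pif7 and Col-0 constant ones (0.75 ± 0.17, adjusted p = 0.0445). At ZT20 no member passed in limma, with 6 members and 2300 genes at an unadjusted p under 0.05 and 184 genes (0.875%) past the test. The regime difference at ZT16 minus that at ZT12 was added after seeing the data. It was above 0 for 39 of 42 members and passed for 9, all of them positive (21.4%, against 2.96% of all genes, with 4.72% of all genes negative), with a median of 0.47 against 0.00 over all genes. UGT74E2 had the largest value, 3.18 ± 0.35 (adjusted p = 0.00102), then UGT73B4 at 2.00, UGT73B2 at 1.42, UGT71B1 at 1.25, UGT72B3 at 1.24, UGT84A2 at 1.14, UGT78D2 at 1.09, UGT78D1 at 0.99 and UGT71B6 at 0.84. Averaged over ZT0, ZT4, ZT16 and ZT20, 3 members were higher (7.14%, against 2.62% of all genes) and 0 lower (against 2.7%), UGT71B1 by 0.51, UGT73B2 by 0.45 and UGT73B3 by 0.40. The count was 0 without ZT16 and without ZT20 (against 1.66% and 1.71% of all genes called). It was 1 without ZT0 and without ZT4 (against 4.38% and 2.64%). Without ZT12 it was 5, with 4 members higher and 1 lower (against 5.91% of all genes called). Deposited TPM without rescaling moved the median of all genes to 0.11 in this comparison and to 0.18 at ZT16. In the ZT16 minus ZT12 contrast that median moved to 0.24. In these 3 comparisons deposited TPM called 8, 5 and 13 members, all higher. Of the 21031 genes tested, 1266, 745 and 1098 were then called higher, against 550, 298 and 622 with rescaling. Calls of higher genes thus rose over all genes too.

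**Figure D3:**
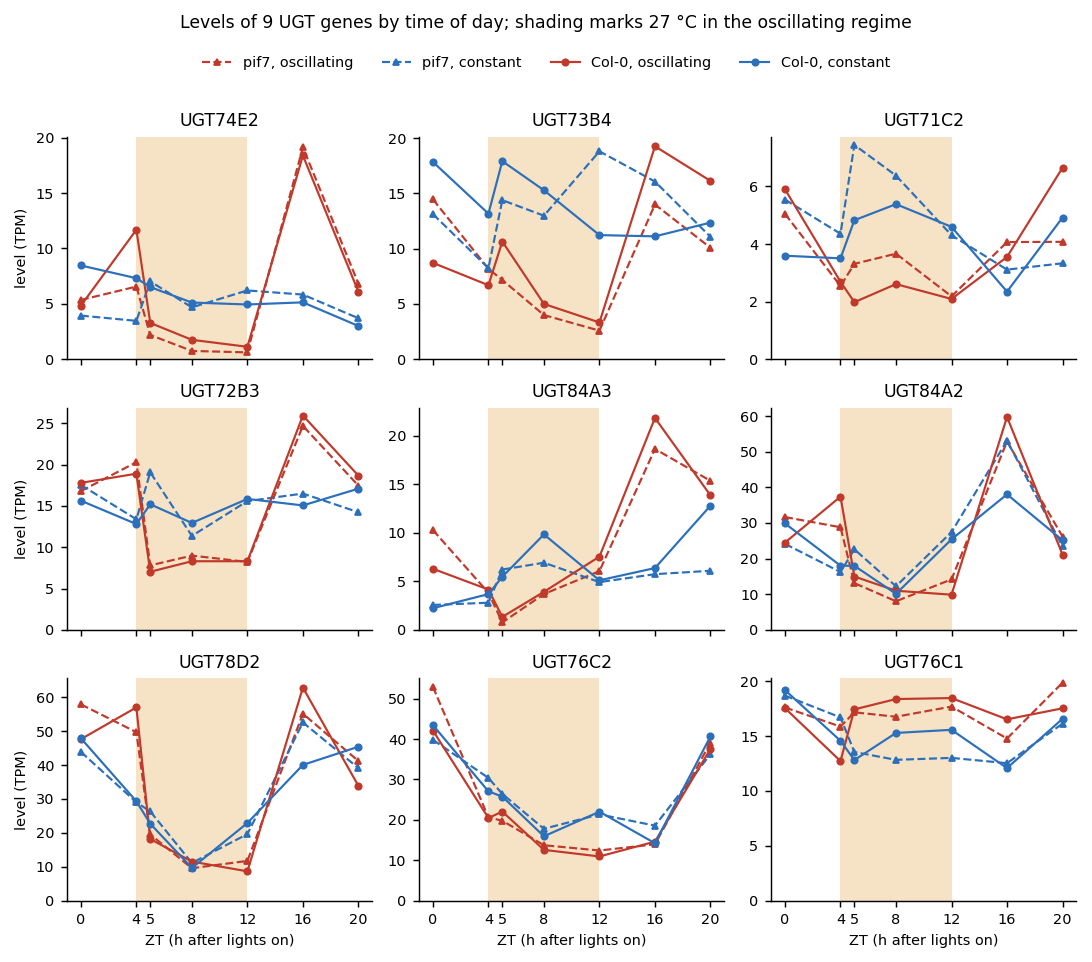
Level in TPM (vertical axis, starting at 0) against ZT in hours (horizontal axis) for 9 UGT genes, with red for the oscillating and blue for the constant regime, triangles and dashed lines for pif7, circles and solid lines for Col-0, and 1 library per point. The shaded hours are those at 27 °C in the oscillating regime; UGT74E2 falls to 0.615 and 1.12 TPM at ZT12 and stands at 19.1 and 18.4 TPM at ZT16 in pif7 and Col-0, while UGT76C1 stands above its constant level at ZT5, ZT8 and ZT12.

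The genotype comparisons ask whether the change in these genes depends on PIF7. In pif7 alone 4 members passed as lower in the warm window (9.52%, against 1.4% of all genes) and 0 as higher (against 2.34%). These were UGT74E2, UGT73B4, UGT71C2 and UGT72B3, with log2 differences of -1.74 ± 0.31, -1.63 ± 0.30, -0.80 ± 0.18 and -0.80 ± 0.17. In Col-0 alone 4 passed as lower (9.52%, against 1.67% of all genes) and 0 as higher (against 2.73%). These were UGT73B4, UGT76E1, UGT71C2 and UGT72B3, with -1.18 ± 0.30, -0.96 ± 0.23, -0.86 ± 0.18 and -0.79 ± 0.17. UGT76E1 had to differ in Col-0, since it passed the filter only through the 2 Col-0 constant libraries in which it was high, and without it 3 of 41 members were lower in Col-0 (7.32%). The 2 calls shared 3 members, and UGT74E2 in Col-0 had -1.13 ± 0.31 (adjusted p = 0.0529). The difference of the differences, pif7 minus Col-0, passed for 0 of 42 members and 0 of 21031 genes in limma (0.0%), with 2 members and 279 genes at an unadjusted p under 0.05. Those 2 members were UGT76E1 and UGT71B1. In 34 members the window difference was below 0 in both genotypes and in 6 above 0 in both, and across the 42 members Pearson's r was 0.803, given as a description of points that share libraries and scaling. The shared calls, these counts and r were not computed over all genes, so they cannot set these members apart from other genes. Without the Col-0 pairs at ZT5 and ZT8, 4 members passed in pif7 (9.52%, against 3.77% of all genes). In Col-0 ZT12 was then the 1 window time left, so only effect sizes are given. UGT73B4 had -1.36, UGT71C2 -0.73, UGT72B3 -0.71 and UGT76E1 0.01 in Col-0. Without ZT5 2 members passed in each genotype, with 3.61% of all genes called in pif7 and 4.33% in Col-0. With ZT8 left out 0 members passed in either genotype, with 0.133% of all genes called in pif7 and 0.124% in Col-0. With ZT12 left out 0 passed in pif7 and 1 in Col-0, with 0.918% and 2.14% of all genes called. Averaged over all 14 pairs, pif7 minus Col-0 passed for 0 members and 76 genes (0.361%), with 5 members and 2099 genes at an unadjusted p under 0.05. Of these 5, UGT76E2, UGT74E2 and UGT72E1 had log2 differences of -0.26, -0.22 and -0.14, and UGT74F1 and UGT76D1 of 0.20 and 0.16.

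**Figure D4:**
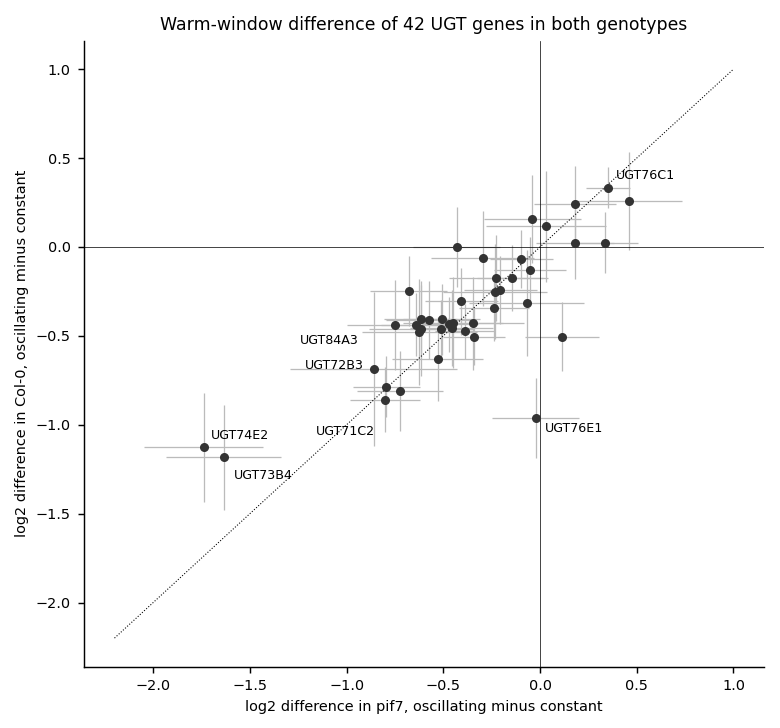
Warm-window log2 difference, oscillating minus constant, in pif7 (horizontal axis) and in Col-0 (vertical axis) for the 42 tested UGT genes, with standard errors from the fit as bars and the line of equal values dotted. UGT74E2 lies at -1.74 in pif7 and -1.13 in Col-0, UGT73B4 at -1.63 and -1.18, and UGT76E1, which rests on 2 Col-0 constant libraries, at -0.02 and -0.96.

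Time of day was tested within each regime over its 14 libraries. In the oscillating regime 27 of 42 members varied with time (64.3%, against 65.7% of all genes), a share near the background. In the constant regime 20 varied (47.6%, against 30.6% of all genes), and 19 of these also varied in the oscillating regime. At constant 17 °C the largest amplitudes, as log2 ratios of the highest to the lowest time on log2(TPM + 1), were those of UGT1 at 2.47, UGT84A1 at 2.27, UGT78D2 at 2.05, UGT84A2 at 1.92, UGT78D1 at 1.91 and UGT71B1 at 1.77. UGT1 was highest at ZT20, with 91.9 TPM in pif7 and 121 TPM in Col-0, against 18 and 18.5 TPM in pif7 and Col-0 at ZT5, and the other 5 were highest at ZT16. In the oscillating regime UGT74E2 led at 3.31, followed by UGT84A3 at 3.27, UGT71B1 at 2.64, UGT73B2 at 2.41, UGT78D2 at 2.34 and UGT84A2 at 2.33. UGT74E2 did not pass this test in the constant regime (adjusted p = 0.337), where its highest level was 8.46 TPM. Of the 27 members that varied in the oscillating regime, 14 were highest at ZT16 and 10 lowest at ZT12, against 16.9% and 16.0% of all genes that varied there. In the constant regime 9 of 20 were highest at ZT16 and 2 lowest at ZT12, against 23.2% and 12.5% of all genes that varied. The time of the highest level was the same in both genotypes for 17 of 27 members in the oscillating and 13 of 20 in the constant regime. The summed TPM of all 49 members in the oscillating regime was highest at ZT16 in each genotype, while its lowest values lay at ZT8 in pif7 and at ZT12 in Col-0. In the constant regime it was highest at ZT16 in pif7 and at ZT20 in Col-0. The sums were 1099 TPM in pif7 and 1181 TPM in Col-0 at ZT16 in the oscillating regime, against 863 TPM in pif7 and 730 TPM in Col-0 in the constant one, and 584 TPM in pif7 and 536 TPM in Col-0 at ZT12 in the oscillating regime, against 725 TPM in each genotype in the constant one.

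**Figure D5:**
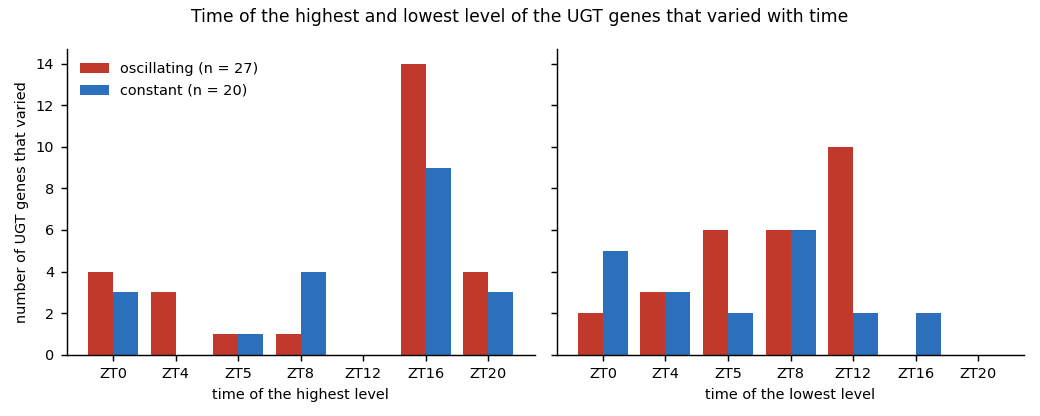
Number of UGT genes (vertical axis) whose mean level over both genotypes was highest (left) or lowest (right) at each sampled time (horizontal axis), among the 27 members that varied with time in the oscillating regime (red) and the 20 in the constant regime (blue). The bars at ZT16 on the left stand at 14 and 9, and those at ZT12 on the right at 10 and 2.

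Many members lie side by side in the genome. With gaps of at most 10000 bases, 34 of the 49 fall into 14 clusters. In the cluster UGT71C5, UGT71C4 and UGT71C3 on chromosome 1 (2223691 to 2229319 in TAIR10 coordinates of the files), the first pair fell at ZT5 and UGT71C3 passed over the window. In the cluster UGT71D1, UGT71C2 and UGT71C1 on chromosome 2 (12703537 to 12711696), UGT71C2 and UGT71C1 passed as lower and UGT71D1 did not (-0.16). UGT73D1 passed as lower and its neighbour UGT73C7 on chromosome 3 had 0.21, and UGT2 passed as lower while UGT1 on the same strand of chromosome 1 had 0.10. Sequence shared between members could divide reads: 38 of 49 coding sequences hold an exact run of at least 25 bases in common with another gene, and 9 a run of at least 75 bases. Gene models on the opposite strand cover all of UGT76E11 and UGT76E12 and most of UGT73C6, UGT85A4 and UGT1. The libraries were made with a kit that keeps the strand, and the use of strand in counting is not given in the sources used here.

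Genes of the pathways around these enzymes were tested in the same fits. The 6 core glucosinolate genes measured beside UGT74B1 included 5 that were higher at ZT4 (against 2.54% of all genes) and 5 that were lower at ZT12 (against 7.05% of all genes), with medians of 0.59 and -0.70. SUR1, the C-S lyase that acts just before UGT74B1, averaged 90.9 TPM in oscillating and 57.8 TPM in constant libraries at ZT4 (0.62 ± 0.12, adjusted p = 0.0148), and 37.8 TPM in oscillating and 75.7 TPM in constant libraries at ZT12 (-0.92 ± 0.12, adjusted p = 0.000812). UGT74B1 was higher at ZT4 and did not pass at ZT12 (-0.20 ± 0.14, adjusted p = 0.359). Of the 11 phenylpropanoid and flavonoid genes tested, 3 were higher at ZT4, and 5 were lower and 1 higher at ZT12, where 9.13% of all genes were higher. At ZT12 FLS1, flavonol synthase, averaged 11.2 TPM in oscillating and 42.3 TPM in constant libraries (-1.74 ± 0.22, adjusted p = 0.000637), and TT4, chalcone synthase, 17.5 TPM in oscillating and 60.6 TPM in constant libraries (-1.68 ± 0.24, adjusted p = 0.00124). SNG1, which transfers sinapate out of the sinapoylglucose that UGT84A2 makes, went the other way at ZT12, at 329 TPM in oscillating and 165 TPM in constant libraries (1.06 ± 0.17, adjusted p = 0.00218). Of 23 tested genes that inactivate hormones by other routes, 1 was higher and 4 lower in the warm window, against 10.4% and 8.97% of all genes. In Col-0 alone 1 was higher and 3 lower (median -0.08, against 2.73% and 1.67% of all genes). In pif7 alone 1 was higher and 0 lower (median 0.05, against 2.34% and 1.4%). These genes were not refitted without the Col-0 pairs at ZT5 and ZT8. DOGT1, named UGT73C5 elsewhere and known to glucosylate brassinosteroids, is no member by its name in the files and had -0.08 ± 0.14 in the window (adjusted p = 0.729).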

How the data were processed

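RNA sequencing values of 28 libraries were used as deposited. Reads were aligned with HISAT2 and quantified with StringTie on TAIR10, per the submitters' processing notes, with 1 library per condition. The authors' deposited tables give TPM per gene, FPKM and coverage; per the file headers these are StringTie's columns, and the TPM of reference genes sum to 1010427 to 1034801 per library, so the column was not treated as an exact TPM. FPKM was not tested. The depth of 1.32 to 2.82 gigabases per library is the median ratio of coverage, the mean read depth per base, to FPKM. It was taken over reference genes with FPKM above 1. TPM were divided by a median-ratio factor per library (0.879 to 1.154) and tested as log2(value + 1) with limma 3.58.1 (R 4.3.3, variance trend), for genes at 1 TPM or more in at least 2 libraries. P-values were adjusted by Benjamini-Hochberg over 21031 genes with a threshold of 0.05. The window fit held all 14 pairs (10 residual degrees of freedom), the fit by time 7, and the test was checked on simulated data. Members and gene lists were chosen with earlier results of these data known, and the locus of 1 listed gene, UGT71C3, was corrected from the files. Named were PIF7, up to 12 members past the test with the largest difference per comparison, list members past the test in any comparison, a few fixed members, the 10 highest levels, the 6 largest amplitudes and up to 4 genes of a neighbouring list; members named beside these complete a list. Alternatives changed pseudocount, filter, scaling, variance trend and libraries. Upstream windows were read from the RefSeq genome TAIR10.1, whose nuclear chromosomes contain every gene end in the files.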

Additional observations from a re-analysis of the deposited data

How the results depend on the processing

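Members past the test in a main fit were recomputed under alternative settings, which gave 1564 values. Members that gained a call only under an alternative are not among them. Of these values, 1361 kept their direction and side of the threshold, 202 kept their direction and lost the threshold, and 1 reversed. The reversed value was that of UGT76E1 in the Col-0 warm window, at 0.011 without the Col-0 pairs at ZT5 and ZT8. Over both genotypes the 19 window calls became 11 among genes with a mean of at least 5 TPM (fewer members tested), 10 with only the window pairs fitted, 10 without the 2 Col-0 pairs, and 9 to 18 with 1 time left out. The shares of all genes called were then 20.1%, 11.2%, 10.2% and 5.96% to 18.8%. In Col-0 the 4 calls became 2 among genes with a mean of at least 5 TPM and 0 with only its window pairs fitted. The shares of all genes called in Col-0 were then 4.76% and 0.00951%. With 1 time left out the calls in Col-0 became 0 to 5. Without the 2 Col-0 pairs 1 window pair was left in Col-0, so calls there are not counted. In pif7 the 4 calls became 0 with only its window pairs fitted, where 0.0% of all genes were called, and 0 to 4 with 1 time left out. With 1 time left out the share of all genes called was 0.124% to 4.33% in Col-0 and 0.133% to 3.61% in pif7. Outside the window the 3 calls became 8 with TPM as deposited, where the share of all genes called rose from 5.31% to 7.61%. With 1 time left out they became 0 to 5, with 1.66% to 5.91% of all genes called. With TPM as deposited the calls were 4 at ZT4, 4 at ZT8 and 5 at ZT16, against 7, 8 and 3. The shares of all genes called were then 4.06%, 9.35% and 4.54%, against 4.77%, 10.5% and 3.05%. At ZT0 the 1 call became 0 without a filter and 0 with only that time's libraries, with 0.554% and 0.119% of all genes called. At ZT12 the 15 calls became 9 among genes with a mean of at least 5 TPM and 7 with only that time's libraries. Of all genes 18.8% and 8.51% were then called. Without the Col-0 pairs, 1 pair was left at ZT5 and at ZT8, so calls at these times are not counted. Except where the setting tests fewer genes or fits fewer libraries, the cause was not tested. Pairing by replicate was not possible because the labels give no replicate numbers. The regimes were paired by time and genotype in every regime fit. With 1 library per condition, depth and biological spread within a condition could not be measured apart.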
